A study of Mus musculus with 32 samples.

Results

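The amino acid and peptide solute carriers are the mouse genes of the families Slc1, Slc3, Slc6, Slc7, Slc15, Slc36, Slc38 and Slc43, taken by symbol alone. The rule found 72 of the 55806 gene identifiers in the 4 deposited count tables. Of these, 68 are carrier genes and 4 (Slc36a1os, Slc36a3os, Slc6a19os and Slc7a6os) carry the symbol of a gene on the opposite strand. The name of the group holds for most members only, since Slc6a8 moves creatine, Slc6a6 taurine and Slc43a3 nucleobases. The study placed a Wilms tumor mutation of the chromatin reader ENL (gene Mllt1, called Enl in the labels) in mouse kidney progenitors and compared the mutant kidneys with ENL-WT kidneys that carry the same Cre allele. Every mutant was heterozygous, EnlT1/+ or EnlT3/+, where T1 is a short insertion and T3 a short deletion. The nephron lineage was targeted with Six2-TGC, a BAC transgene carried as 1 copy (tg/+) that is reported to misexpress the neighbouring Six3, and the stroma with Foxd1GC/+, a knock-in that removes Foxd1 function from its own allele. Controls were Six2-TGCtg/+ or Foxd1GC/+, so that ENL-WT mice also carried the Cre. Whole kidneys taken at embryonic stage E18.5 gave 2 libraries for each of the 3 Six2 genotypes (ENL-WT, ENL-T1 and ENL-T3), and 3 each for Foxd1-ENL-WT and Foxd1-ENL-T1. Cells sorted for the tdTomato Cre reporter (LSL-tdT) gave 3 libraries for each genotype (ENL-WT and ENL-T1) at E14.5 and at E18.5 in the Six2 lineage, and 4 for each genotype at E18.5 in the Foxd1 lineage. The labels number these libraries without saying whether they came from separate litters, so each p-value measures the spread between libraries.

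Total gene counts ran from 106005614 to 157266455 in the Six2 whole-kidney libraries, from 67137194 to 79343015 in the Foxd1 whole-kidney libraries and from 76510702 to 137888792 in the sorted Six2 libraries. The sorted Foxd1 libraries were far shallower, with 2557443 to 3508381 counts, and a count of 3 there already stood for 0.841 to 1.22 CPM (counts scaled to the library's TMM-adjusted total). The members took 0.256 to 0.278% of all counts in the Six2-ENL-WT whole kidneys and 0.208 to 0.213% in the kidneys of either Six2 mutant. Of the 72 members, 61 had enough reads to be tested in at least 1 of the 6 comparisons of a mutant with its ENL-WT control, and 31 in all 6. The 11 members tested in none were Slc15a5, Slc1a7, Slc36a1os, Slc36a3, Slc36a3os, Slc6a14, Slc6a19os, Slc6a2, Slc6a21, Slc6a3 and Slc7a15. A member was called changed at an adjusted p under 0.05 and a fold above 1.5. By that rule 26 members were called at least once, of which 15 were only ever lower, 4 only ever higher and 7 lower in some comparisons and higher in others, and 35 were tested but never called.

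The kidney filters free amino acids from the blood and takes nearly all of them back in the proximal tubule. Carriers on the luminal brush border, driven by sodium, by protons or by exchange, bring amino acids and small peptides into the cell, and exchangers and uniporters on the basolateral side pass them to the blood. Several of these carriers work only beside a partner protein: Slc3a1 (rBAT) brings Slc7a9 and Slc7a13 to the membrane, Slc3a2 (4F2hc) does so for the basolateral and growth exchangers, and Slc6a18 and Slc6a19 depend on partners such as collectrin. Loss of Slc3a1 or Slc7a9 causes cystinuria, of SLC6A19 Hartnup disorder and of SLC7A7 lysinuric protein intolerance. Another set, among them Slc38a2, Slc7a5, Slc1a5 and Slc7a11, feeds growing cells and is induced in many cell types when amino acids run short.

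The promoters below belong to the cystine carrier pair Slc3a1 and Slc7a9, whose levels are set side by side below, and to Slc6a20a and Slc6a20b, neighbouring genes on chromosome 9. Each is the RefSeq window from 250 bases before to 50 bases after the annotated start of transcription, in the mouse build GRCm38.p6, written 5′ to 3′ on the strand of the gene. A window was found for 53 of the 72 members. Capitals mark every match, on either strand, to CAAAGNNCA (a core of the HNF4 site) or to GTTAAT (a half-site of HNF1). Slc3a1 is at chr17:85028097-85028396 on the + strand, Slc7a9 at chr7:35448842-35449141 on the + strand (the first of its 2 windows), Slc6a20a at chr9:123678783-123679082 on the − strand and Slc6a20b at chr9:123632489-123632788 on the − strand.
Slc3a1: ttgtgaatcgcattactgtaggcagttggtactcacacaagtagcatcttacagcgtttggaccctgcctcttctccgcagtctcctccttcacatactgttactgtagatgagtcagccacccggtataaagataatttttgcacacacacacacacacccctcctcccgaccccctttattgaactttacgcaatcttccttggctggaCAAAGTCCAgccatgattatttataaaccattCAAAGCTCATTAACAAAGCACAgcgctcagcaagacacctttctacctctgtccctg
Slc7a9: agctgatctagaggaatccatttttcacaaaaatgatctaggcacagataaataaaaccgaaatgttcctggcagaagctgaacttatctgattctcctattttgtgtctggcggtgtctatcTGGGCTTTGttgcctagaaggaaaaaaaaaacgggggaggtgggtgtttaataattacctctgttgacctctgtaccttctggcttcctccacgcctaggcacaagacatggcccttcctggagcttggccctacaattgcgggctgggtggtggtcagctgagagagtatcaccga
Slc6a20a: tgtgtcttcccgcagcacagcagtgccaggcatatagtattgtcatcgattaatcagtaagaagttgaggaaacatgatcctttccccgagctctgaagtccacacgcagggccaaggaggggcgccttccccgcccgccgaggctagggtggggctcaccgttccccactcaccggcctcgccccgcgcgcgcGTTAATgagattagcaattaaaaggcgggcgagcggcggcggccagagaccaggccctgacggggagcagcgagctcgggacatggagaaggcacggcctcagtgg
Slc6a20b: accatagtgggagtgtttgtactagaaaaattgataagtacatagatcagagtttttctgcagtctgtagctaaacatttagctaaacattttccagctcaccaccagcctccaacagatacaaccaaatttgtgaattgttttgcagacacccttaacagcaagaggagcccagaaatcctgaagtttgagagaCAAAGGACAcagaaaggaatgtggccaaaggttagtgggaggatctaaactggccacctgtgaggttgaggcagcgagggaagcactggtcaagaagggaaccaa

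The Slc3a1 window held 3 matches to CAAAGNNCA, the nearest beginning 7 bases before the start and 7 bases into the transcript, with a GTTAAT on the other strand that overlaps them. Slc7a9 held 1 on the opposite strand, Slc6a20b held 1, and Slc6a20a held only a GTTAAT. The windows of Slc6a20a and Slc6a20b shared 0 stretches of 12 bases, and 62.3% of the bases of the first were G or C against 44% in the second. Among the 32851 windows of all genes, 6.36% held CAAAGNNCA and 7.1% held GTTAAT. Counted by window in the same way, 7 of the 74 windows of members held CAAAGNNCA and 7 held GTTAAT. Among the 53 members with a window, 6 held the first motif (Slc15a5, Slc3a1, Slc6a20b, Slc7a7, Slc7a8 and Slc7a9) and 7 the second (Slc36a1, Slc3a1, Slc6a13, Slc6a16, Slc6a20a, Slc7a15 and Slc7a7). A match describes letters in the window and is no measurement of binding.

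Per kilobase of exon, Slc3a1 was the most abundant member in Six2-ENL-WT whole kidneys, at 57.7 CPM per kb and 10.9% of the summed level of the members, followed by the system A carrier Slc38a2 at 43.5 and the neutral carrier Slc6a18 at 42.2. In the Six2-ENL-T1 whole kidneys Slc38a2 came first, at 41.7 CPM per kb and 12.5% of the sum. The sorted Six2-ENL-WT cells had another order. Slc38a2 led at E14.5 with 47.6 CPM per kb, close to Slc3a2 at 45.9, and at E18.5 it stood at 241 CPM per kb, which was 38.6% of the members' sum, ahead of Slc3a2 at 53.1. The sorted Foxd1-ENL-WT cells were led by Slc38a2 at 43.5 CPM per kb, the imprinted system A carrier Slc38a4 at 36.9 and Slc3a2 at 28.

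In Six2-ENL-T1 whole kidneys at E18.5, 17 of 59 tested members were lower than in ENL-WT and 1 was higher. Over all genes tested, 4.88% were called lower and 2.88% higher. In Six2-ENL-T3, 17 of 59 were lower and 2 higher, beside 5.28% and 4.34% of all genes. Both mutants were set against the same 2 ENL-WT libraries. The median log2 fold change of the members was -0.21 in T1 and -0.21 in T3, beside a median of -0.01 for all genes in T1. The largest falls in both mutants were those of Slc7a13, Slc7a12 and Slc6a20b. Set directly against each other, T3 and T1 differed in 0 of 59 members by edgeR's quasi-likelihood test, with 8 at an unadjusted p under 0.05, and in 0 by DESeq2 and by edgeR's exact test. The fitted log2 differences between them ran from -0.66 to 0.96, so that moderate differences between the 2 mutations could not be told from the spread of 2 libraries. Sex and mutation cannot be told apart in this comparison. The Y-linked Ddx3y was at 122 and 126 CPM in the T1 libraries and at 0 in both T3 libraries. Xist, expressed in females, was at 0.159 and 0.11 CPM in T1 and at 960 and 1327 in T3. Over all genes 0.00418% were called higher in T3 and 0% lower. The 2 ENL-WT libraries differed in sex as well. Ddx3y was at 120 CPM in replicate 1 and at 0 in replicate 2, and Xist at 0.108 and 549 CPM. The comparisons of T1 and of T3 with ENL-WT are therefore not balanced for sex, and its part in them was not tested.

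**Figure D1:**
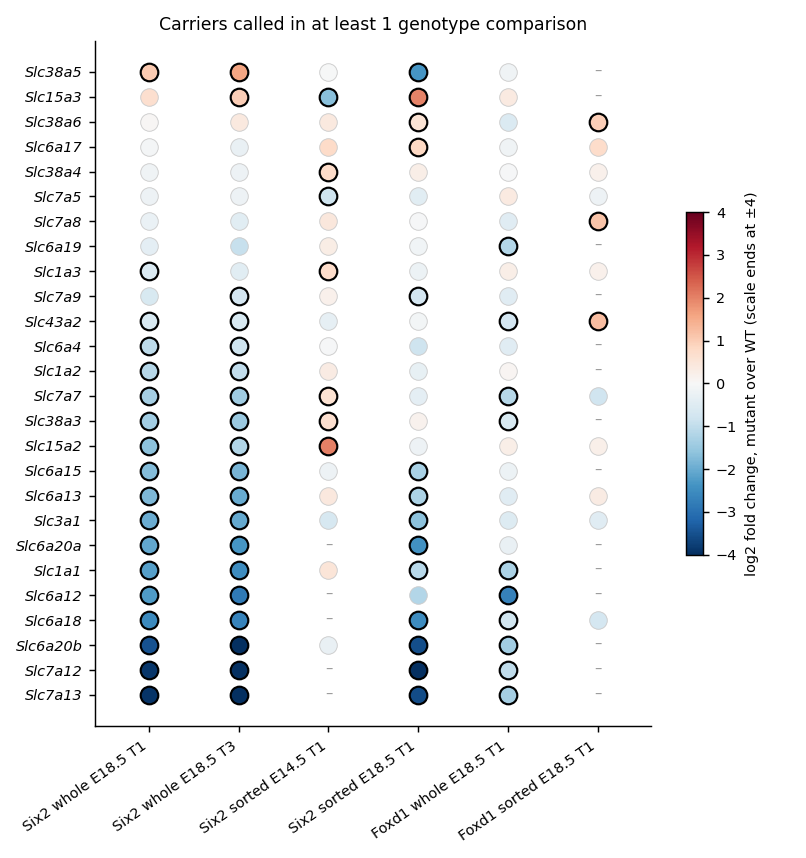
Log2 fold change (mutant against ENL-WT, colour from -4 to 4) of the 26 members called in at least 1 of the 6 comparisons (columns). A black ring marks a call (adjusted p under 0.05 and fold above 1.5) and a dash a member with too few reads to test. Most rings in the whole-kidney and E18.5 sorted Six2 columns are on lower members, while the sorted Foxd1 column holds 3 rings, all on higher members.

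Of the 7 carriers listed for luminal uptake of neutral amino acids, 4 were lower in T1 and 4 in T3. The list is a loose label that also holds Slc6a15 and Slc7a10, and where its members lie in the cell was not tested. Slc6a18 (B0AT3; chromosome 13, 73661752 to 73678023, mm10), which takes up glycine and other neutral amino acids, read 212 and 161 CPM in ENL-WT, 26 and 37.5 in T1, and 28.1 and 30 in T3. No mutant library reached a control, as for 55% of all genes tested in T1 and 56.1% in T3. The log2 fold changes were -2.56 ± 0.19 (SE, adjusted p = 0.00018) and -2.68 ± 0.19 (adjusted p = 0.00013). The neighbouring Slc6a19 (B0AT1; 73679745 to 73704865), the main luminal neutral carrier, gave no such separation. It read 13.6 and 5.05 CPM in ENL-WT, 6.82 and 7.43 in T1, and 4.61 and 5.15 in T3, so that the lower control library sat among the mutants. The higher control held Ddx3y RNA, as both T1 libraries did, and the lower control and both T3 libraries did not. The part of sex in these values was not tested. The log2 fold change of Slc6a19 was -0.38 ± 0.38 in T1 (adjusted p = 0.60) and -0.93 ± 0.38 in T3 (adjusted p = 0.15), and the calls turned on the controls. Without ENL-WT replicate 1 the T1 value was 0.51. Without ENL-WT replicate 2 Slc6a19 was called lower in T1 (-0.93, adjusted p = 0.00195) and in T3 (-1.48, adjusted p = 0.0002), and T3 was also called with no filter on low counts (-0.92, adjusted p = 2e-10).

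Slc6a20b and Slc6a20a belong to the branch of the Slc6 family that carries proline and other imino acids. Slc6a20b (chromosome 9, 123590800 to 123632565) read 38.4 and 25 CPM in ENL-WT and lay between 1.7 and 3.06 in the 4 mutant libraries. The fall was -3.49 ± 0.22 on the log2 scale in T1 (adjusted p = 9.7e-05) and -4.07 ± 0.23 in T3 (adjusted p = 5.2e-05). Slc6a20a (123634770 to 123678885) had a lower level, 6.71 and 4.27 CPM in ENL-WT and 0.797 to 1.36 in the mutants, with log2 fold changes of -2.07 ± 0.29 and -2.35 ± 0.30. Of the 50-base stretches in the exons of Slc6a20a, 26.7% also occur in another gene, mainly Slc6a20b, so reads of the pair can be exchanged. Exons of Slc6a20b overlap Sacm1l over 21.1% of their length. Slc6a15, a carrier of branched-chain amino acids, fell from 20.7 and 25.5 CPM to between 6.25 and 7.12 in the 4 mutant libraries.

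Of the cystine, dibasic and acidic carriers, Slc7a13, Slc1a1 and Slc3a1 were lower in both mutants. Slc7a9 was lower in T3 alone by edgeR's quasi-likelihood test. In T1 it was called lower by DESeq2 (-0.62, adjusted p = 0.0147), by the exact test (-0.64, adjusted p = 0.0284) and with no filter on low counts. Its T3 call was lost when scaling by library size only (adjusted p = 0.0579) or fitting the 2 groups alone (0.0735). Slc7a13 (AGT1; chromosome 4, 19818725 to 19842218), an aspartate and glutamate carrier of the late proximal tubule, read 49.4 and 43.2 CPM in ENL-WT, 2.77 and 3.35 in T1, and 1.97 and 2.87 in T3. Its log2 fold changes of -3.92 ± 0.18 (adjusted p = 3.7e-05) and -4.26 ± 0.19 (adjusted p = 2.7e-05) were the largest of any member in these kidneys. Slc1a1 (EAAC1; chromosome 19, 28835049 to 28913960), the luminal glutamate carrier, read 31.6 and 24.2 CPM in ENL-WT and 4.71 to 6.27 in the mutants, with log2 fold changes of -2.20 ± 0.14 and -2.50 ± 0.14. Slc3a1 (chromosome 17, 85028376 to 85064236) read 153 and 109 CPM in ENL-WT, 27.9 and 37.9 in T1, and 35.4 and 28.6 in T3, a log2 fold change of -1.99 ± 0.20 (adjusted p = 0.00066) and -2.03 ± 0.20 (adjusted p = 0.00053). Its cystinuria partner Slc7a9 (chromosome 7, 35448796 to 35466036) read 21.5 and 13.9 CPM in ENL-WT, 10.4 and 12.3 in T1, and 11.7 and 9.54 in T3. The log2 fold change of Slc7a9 was -0.64 ± 0.20 in T1 (adjusted p = 0.08) and -0.74 ± 0.20 in T3 (adjusted p = 0.044), and the T3 call was lost without T3 replicate 1 (adjusted p = 0.0924), T3 replicate 2 (0.218) or ENL-WT replicate 1 (0.113). Without ENL-WT replicate 2 it was called in T1 (adjusted p = 0.0045). Exons of Slc3a1 overlap Prepl over 26.5% of their length and those of Slc1a1 overlap 4430402I18Rik over 31.9%, and the counting did not use strand.

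**Figure D2:**
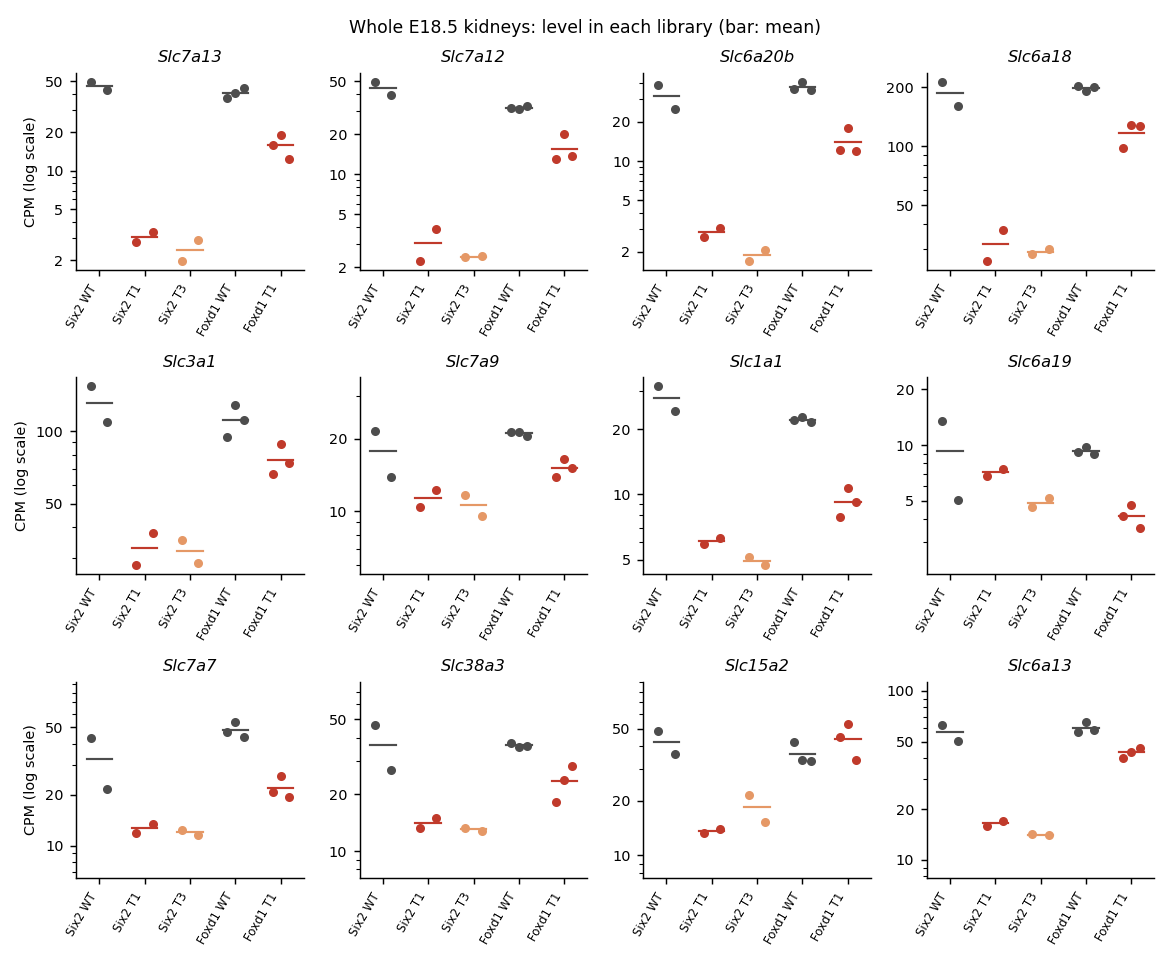
CPM (log axis) of 12 members in each whole-kidney library at E18.5, 2 for each of the 3 Six2 genotypes and 3 each for Foxd1-ENL-WT and Foxd1-ENL-T1 (points). Slc7a13 falls from 43.2 to 49.4 CPM to at most 3.35 with the Six2 Cre and from 37.3 to 44.1 to between 12.4 and 19.1 with the Foxd1 Cre, while Slc15a2 falls only with the Six2 Cre.

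The ratio of Slc3a1 to Slc7a9, each taken as CPM per kb, was 8.38 and 9.20 in the 2 ENL-WT whole kidneys, 3.15 and 3.64 in T1, and 3.53 and 3.58 in T3. In the sorted Six2 cells at E18.5 it was 5.08 to 6.07 in ENL-WT and 2.65 to 3.51 in T1. The groups did not overlap in either experiment. Levels of single genes did not overlap for 55% of those tested in T1 whole kidneys, 56.1% in T3 and 34.9% in these sorted cells. At E14.5 the ratio overlapped, at 0.297 to 0.451 in ENL-WT and 0.095 to 0.304 in T1. With the Foxd1 Cre the whole kidneys did overlap, at 5.24 to 7.07 in ENL-WT and 5.67 to 6.32 in T1. The sorted Foxd1 cells did not, at 1.5 to 2.06 and 0.825 to 1.18. Each gene had at most 16 counts per library there, and T1 replicate 1, with 3 counts of Slc7a9, was left out. The ratio describes these libraries and was not tested.

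**Figure D3:**
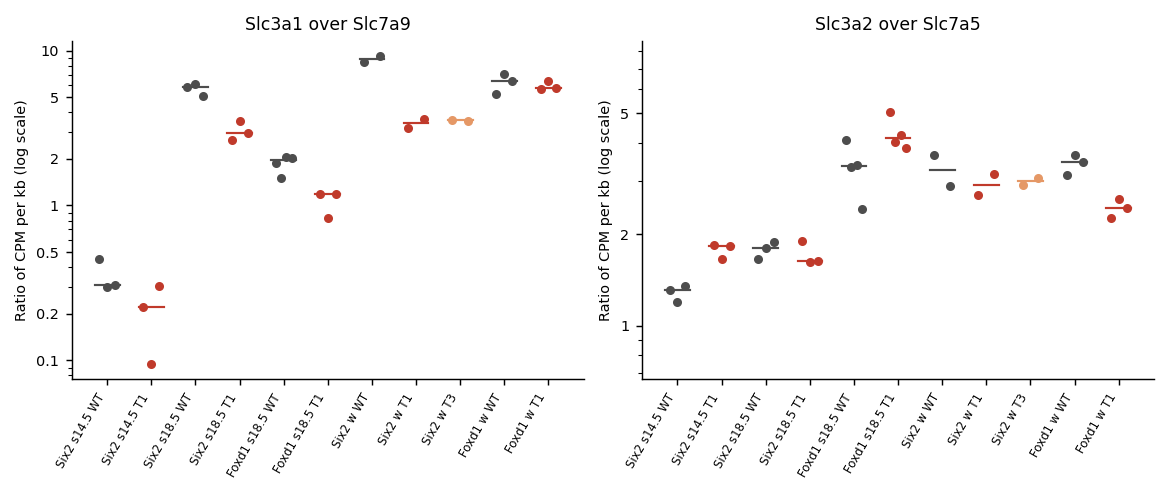
Ratio of the level per kb of a heavy chain to that of its light chain in each library (points, with the median as a bar) for Slc3a1 over Slc7a9 and for Slc3a2 over Slc7a5, in all 11 groups. The first ratio falls from 8.38 or above to 3.64 or below in the Six2 whole kidneys. The second rises from at most 1.35 to at least 1.66 in the sorted Six2 cells at E14.5. It falls from at least 3.13 to at most 2.61 in the Foxd1 whole kidneys, and its genotypes overlap in the other experiments.

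Of the 7 basolateral carriers, 3 were lower in T1 and the same number in T3, in both cases Slc38a3, Slc7a7 and Slc43a2. Slc38a3 (SNAT3), which moves glutamine into the ammonia-forming cells of the tubule, read 46.4 and 26.9 CPM in ENL-WT and 12.7 to 14.9 in the mutants, a log2 fold change of -1.38 ± 0.22 in T1 (adjusted p = 0.0058, and 0.066 without T1 replicate 1) and -1.49 ± 0.22 in T3. Slc7a7 (y+LAT1), the exporter of arginine and lysine, read 43.2 and 21.5 CPM in ENL-WT and 11.5 to 13.5 in the mutants. Its ENL-WT libraries differed more from each other than the mutants did, and its adjusted p of 0.016 in T1 and 0.012 in T3 rose to 0.131 and 0.0894 without T1 replicate 1 or 2, and to 0.0687 and 0.0816 without T3 replicate 1 or 2. For Slc38a3 and Slc7a7 the higher control was ENL-WT replicate 1, the one with Ddx3y RNA, and the part of sex was not tested. Slc43a2 (LAT4), a uniporter of essential neutral amino acids, fell from 61.9 and 54.1 CPM to 35.4 to 38.6, or -0.65 ± 0.09 and -0.64 ± 0.09. With ENL-WT replicate 1 left out, neither value reached 1.5-fold (-0.53 and -0.52), and that of T3 also without T3 replicate 2 (-0.58). Slc7a8 (LAT2), the exchanger partner of Slc3a2, read 144 and 120 CPM in ENL-WT and 88.4 to 116 in the mutants and was not called. Slc3a2 itself read 102 and 94.2 CPM in ENL-WT and 75 to 80.9 in the mutants, a log2 fold change of -0.36 ± 0.06 (adjusted p = 0.0064) in T1 and -0.30 ± 0.06 (adjusted p = 0.013) in T3, below the fold of 1.5.

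Among the peptide carriers, Slc15a2 (PepT2), the high-affinity carrier of di- and tripeptides in the late proximal tubule, read 48.6 and 36.4 CPM in ENL-WT, 13.4 and 13.9 in T1, and 21.6 and 15.2 in T3. The log2 fold change was -1.64 ± 0.19 in T1 (adjusted p = 0.0012) and -1.20 ± 0.18 in T3 (adjusted p = 0.0039). Slc15a1 (PepT1), the low-affinity carrier of the early tubule, stayed between 0.974 and 1.62 CPM in all 6 libraries. Slc15a3, which moves histidine and peptides out of lysosomes and is best known from immune cells, was on the other side, at 2.04 and 2.01 CPM in ENL-WT, 2.94 and 3.53 in T1, and 4.6 and 3.35 in T3. It was called higher in T3 (0.97 ± 0.19, adjusted p = 0.011, and 0.0622 without T3 replicate 1) and missed the threshold in T1 (0.67 ± 0.19, adjusted p = 0.052). None of the 3 tested proton-coupled amino acid carriers of the Slc36 family was called. Slc36a1 read 20.9 to 31.1 CPM and Slc36a2 at most 0.567 CPM in every library.

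Of the 4 carriers of osmolytes and creatine, Slc6a12 and Slc6a13 were lower. Slc6a12 (BGT1), a betaine and GABA carrier, read 2.25 CPM in both ENL-WT libraries and 0.271 to 0.509 in the mutants. Slc6a13 (GAT2), a GABA and taurine carrier, read 62.9 and 50.8 CPM in ENL-WT, 15.8 and 17 in T1, and 14.2 and 14 in T3, with log2 fold changes of -1.79 ± 0.11 and -2.01 ± 0.11. The taurine carrier Slc6a6 stayed within 228 to 267 CPM. Among the carriers known from nerve tissue, the glutamate carriers Slc1a2 and Slc1a3 and the serotonin carrier Slc6a4 were lower in T1. Slc1a2 and Slc6a4 were also lower in T3, all at 3.74 CPM or less. The T1 call of Slc1a2 was lost without T1 replicate 1 or 2 or ENL-WT replicate 1 (adjusted p 0.073 to 0.208), and its T3 call whichever of the 4 libraries was left out (0.0717 to 0.198). The T1 call of Slc6a4 was lost without T1 replicate 1 (adjusted p = 0.0805) or 2 (0.141), and its T3 call without T3 replicate 2 (0.168) or ENL-WT replicate 1 (0.0528) or 2 (0.0858). Slc1a3 read 27.7 and 25.9 CPM in ENL-WT and 17.4 to 22.1 in the mutants, and its T1 value of -0.59 ± 0.11 lay at the edge of the 1.5-fold limit, which it missed with DESeq2 and with 4 other settings.

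Slc38a5 (SNAT5), a sodium- and proton-coupled glutamine carrier, was the only member higher in both mutants. It read 1.24 and 0.922 CPM in ENL-WT, 2.19 and 2.25 in T1, and 3.74 and 2.71 in T3. Its log2 fold change was 1.04 ± 0.22 in T1 (adjusted p = 0.018), a call lost without T1 replicate 1 (adjusted p = 0.101) or 2 (0.106), and 1.58 ± 0.22 in T3 (adjusted p = 0.0026). Slc38a5 is X-linked, and the Y-linked Ddx3y was at 120 to 126 CPM in both T1 libraries and ENL-WT replicate 1 and at 0 in both T3 libraries and ENL-WT replicate 2. Of 10 members listed here as growth-related exchangers only Slc7a12 was lower. The list is a loose label that also holds the nucleobase carrier Slc43a3, and a role of Slc7a12 in growth was not tested. Over the sorted Six2-ENL-WT libraries Slc7a12 had 0 counts at the earlier stage, E14.5, and 1514 at E18.5. Its fall is therefore not read as a loss in carriers that feed growing cells. Slc7a12 (asc-2; chromosome 3, 14480697 to 14505830), a light chain of the Slc7 family, read 49.3 and 39.3 CPM in ENL-WT and 2.22 to 3.84 in the mutants. The cystine and glutamate exchanger Slc7a11 (xCT) read 7.4 and 7.22 CPM in ENL-WT and 9.84 to 10.4 in the mutants, 0.47 ± 0.09 in both (adjusted p = 0.01 in T1), short of 1.5-fold. The glutamine carrier Slc1a5 (ASCT2) went from 48.7 and 49.8 CPM to 35.8 to 40.4, or -0.45 ± 0.06 in T1 and -0.30 ± 0.06 in T3, also short of that fold. Slc38a2, Slc38a1, Slc7a1, Slc1a4 and Slc7a5 lay within 0.21 of 0 on the log2 scale in both mutants.

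Other genes of the proximal tubule moved in the same libraries. All 12 proximal tubule markers, among them Lrp2, Cubn and Slc34a1, were lower in T1 and in T3. Their summed level was 2922 to 3497 CPM in ENL-WT, 503 to 624 in T1 and 504 to 544 in T3, and none was at 0. In whole kidneys, fewer proximal tubule cells and less RNA per cell cannot be told apart. Of 10 macrophage markers, 7 were higher in each mutant, with sums of 162 to 164 CPM in ENL-WT, 225 to 249 in T1 and 239 to 264 in T3. The part of these markers in the members' changes was not tested.

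In sorted Six2-lineage cells at E18.5, 11 of 56 tested members were lower in T1 and 3 were higher, beside 5.54% and 6.14% of all genes. All 4 luminal cystine, dibasic and acidic carriers and 4 of the 6 tested on the loose luminal neutral list were lower. Slc6a18 read 62.6, 69.6 and 49.4 CPM in ENL-WT and 8.92, 9.56 and 13.5 in T1, a log2 fold change of -2.50 ± 0.16 (adjusted p = 1.3e-07). Slc7a12 read 5.02, 8.67 and 6.19 CPM in ENL-WT and 0.25, 0.0251 and 0.373 in T1, or -4.93 ± 0.44 (adjusted p = 3.2e-06). No library of either gene crossed into the other group, as held for 34.9% of all genes tested. Slc7a13 fell by 3.57 ± 0.27, Slc6a20b by 3.55 ± 0.38, Slc6a20a by 2.43 ± 0.36 and Slc3a1 by 1.65 ± 0.11 on the log2 scale.

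Slc3a1 read 26.6, 34.4 and 27.4 CPM in these ENL-WT cells and 9.03, 9.34 and 9.68 in T1 (adjusted p = 2.2e-07). Slc7a9 read 5.42, 6.67 and 6.36 CPM and 4.01, 3.13 and 3.86, with a smaller fall of -0.74 ± 0.15 (adjusted p = 0.0036). Slc1a1 went from 14.3, 21 and 17.2 CPM to 8.68, 7.39 and 8.1, or -1.11 ± 0.14. Slc6a13 fell by 1.27 ± 0.12 and Slc6a15 by 1.30 ± 0.16 on the log2 scale. As in the whole kidneys, Slc6a19 did not separate, at 0.96, 2.41 and 1.87 CPM against 1.68, 1.5 and 1.56. Its log2 fold change was -0.14 ± 0.29 (adjusted p = 0.80).

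Carriers that were lower in whole Six2 kidneys were not all lower in the sorted cells. Slc15a2 read 23.7, 33.9 and 34.7 CPM in sorted ENL-WT cells and 19.4, 28 and 32.9 in T1, so the groups overlapped (-0.19 ± 0.17, adjusted p = 0.52). Slc38a3 read 14.6, 14.2 and 13.2 CPM against 17.7, 15.8 and 14.1 (0.19 ± 0.11, adjusted p = 0.27). Slc7a7 was lower in every T1 library, at 9.25, 8.91 and 9.39 CPM against 7.18, 7.22 and 6.46, but by -0.39 ± 0.11 (adjusted p = 0.027), short of 1.5-fold. Slc38a5 went down here, from 0.998, 1.52 and 0.923 CPM to 0.283, 0.326 and 0.0533 (-2.35 ± 0.49, adjusted p = 0.004), whereas it was called higher in whole kidneys. The whole and sorted tables were normalised apart, and the difference between them was not tested. Of the 17 members lower in Six2-ENL-T1 whole kidneys, 9 were also among the 11 lower in sorted T1 cells, which come from separate libraries. They made up 52.9% of the first list and 81.8% of the second. The same overlap over all genes tested was not counted.

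The 3 members higher in sorted T1 cells at E18.5 were Slc15a3, Slc6a17 and Slc38a6. Slc15a3 read 1.71, 1.04 and 1.66 CPM in ENL-WT and 5.58, 6.52 and 5.18 in T1, an increase of 1.98 ± 0.21 on the log2 scale (adjusted p = 1.3e-05). Slc6a17 (NTT4), a vesicle carrier of neutral amino acids known from neurons, read 20.4, 17.4 and 17.2 CPM and 31.2, 33.7 and 33, or 0.84 ± 0.09 (adjusted p = 2.3e-05). Slc38a6 read 9.68, 7.72 and 7.33 CPM and 14.3, 11.7 and 11, with a change of 0.59 ± 0.14 that lies at the 1.5-fold limit and missed it with DESeq2 (0.58) and without T1 replicate 1 (0.47), ENL-WT replicate 2 (0.54) or ENL-WT replicate 3 (0.51). In these cells 8 of 10 macrophage markers were higher, their sum being 38.2 to 40.8 CPM in ENL-WT and 105 to 120 in T1, with none at 0. Red cell markers summed to 103 to 202 CPM in ENL-WT and 1477 to 2177 in T1, and proximal tubule markers to 1534 to 2067 and 510 to 560. The part of these cells in the changes was not tested. Exons of Slc15a3 overlap Tmem132a over 28.1% of their length. Of the 50-base stretches in the transcripts of Slc38a6, 35.5% also occur in another gene, most often Noct, so its reads can be exchanged.

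At E14.5 the sorted Six2 cells gave a different set of changes: 5 of 49 tested members were higher in T1 and 2 were lower, beside 4.11% and 2.28% of all genes. No luminal neutral, cystine, dibasic or acidic carrier was among them. Slc38a4 (SNAT4), an imprinted system A carrier, read 143, 138 and 143 CPM in ENL-WT and 249, 233 and 235 in T1, an increase of 0.77 ± 0.04 (adjusted p = 4e-05). Slc1a3 (GLAST), a glutamate carrier known from glia, read 59.3, 80.8 and 79 CPM and 117, 125 and 116, or 0.73 ± 0.11 (adjusted p = 0.0035). In both genes every T1 library lay above every control, and for 31.8% of all genes tested the groups did not overlap.

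Slc38a3 and Slc7a7, lower in whole mutant kidneys at E18.5, were higher here. Slc38a3 read 5.87, 5.79 and 6.63 CPM in ENL-WT and 8.69, 9.92 and 10.2 in T1 (0.67 ± 0.11, adjusted p = 0.0049). Slc7a7 read 5.01, 4.78 and 6.44 CPM and 8.01, 8.36 and 8.35 (0.62 ± 0.13, adjusted p = 0.016), a call lost without T1 replicate 2 or 3 or ENL-WT replicate 1 or 2 (adjusted p 0.052 to 0.0608). Slc15a2 read 0.632, 0.171 and 0.566 CPM in ENL-WT and 1.28, 1.91 and 2.33 in T1, a log2 fold change of 2.03 ± 0.46 (adjusted p = 0.022) that was no longer called without T1 replicate 2 (adjusted p = 0.0605) or 3 (0.0779). None of the 3 was called in sorted T1 cells at E18.5.

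The first of the 2 lower members was the leucine exchanger Slc7a5 (LAT1), at 136, 139 and 124 CPM in ENL-WT and 71.8, 79.8 and 70.2 in T1 (-0.83 ± 0.06, adjusted p = 0.00017). Its heavy chain Slc3a2 went the same way by less, from 169, 158 and 159 CPM to 126, 126 and 123 (-0.36 ± 0.04, adjusted p = 0.0015). The ratio of Slc3a2 to Slc7a5 per kb was 1.19 to 1.35 in ENL-WT and 1.66 to 1.84 in T1. In the sorted Six2 cells at E18.5 it overlapped, at 1.66 to 1.88 and 1.62 to 1.9. In Foxd1 whole kidneys it was lower in T1, at 3.13 to 3.65 in ENL-WT and 2.26 to 2.61 in T1. At E18.5 the log2 fold change of Slc7a5 was -0.46 ± 0.09 (adjusted p = 0.0025) and that of Slc3a2 -0.52 ± 0.08 (adjusted p = 0.00027), each short of 1.5-fold. The other lower member, Slc15a3, read 1.28, 0.621 and 0.826 CPM against 0.134, 0.336 and 0.374 (-1.68 ± 0.45, adjusted p = 0.043), and the call was lost whichever of the 6 libraries was left out (adjusted p 0.0558 to 0.132). Progenitor markers were lower in the same T1 libraries (6 of 6, sums of 1761 to 2049 CPM against 883 to 1075) and stromal markers summed to 554 to 722 CPM in ENL-WT and 1065 to 2142 in T1, and their part in the changes was not tested.

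**Figure D4:**
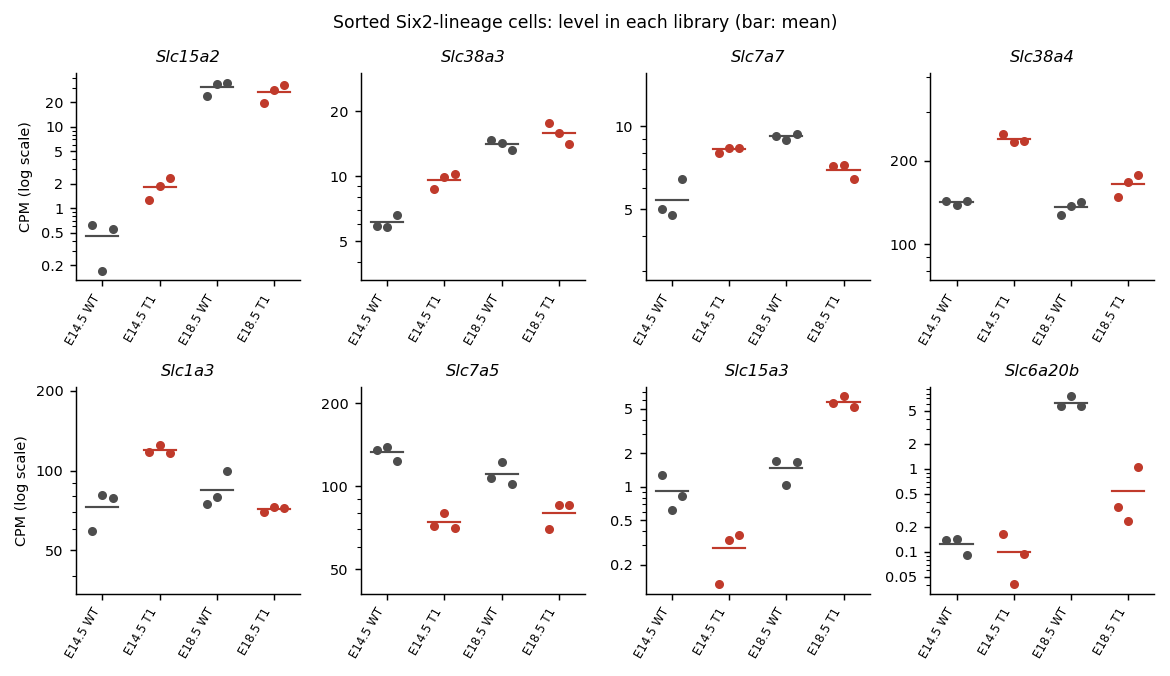
CPM (log axis) of 8 members in sorted Six2-lineage cells at E14.5 and E18.5, with 3 ENL-WT and 3 ENL-T1 libraries at each stage (points). Slc38a4 and Slc1a3 are called higher in T1 at E14.5 and not at E18.5, Slc15a3 is lower in T1 at E14.5 (at most 0.374 CPM) and higher at E18.5 (at least 5.18 CPM), and Slc6a20b rises with stage mainly in ENL-WT.

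A test of the stage by genotype interaction asked whether the T1 effect differed between E14.5 and E18.5. It passed at an adjusted p under 0.05 for 12 of 59 members, 2 with a higher T1 effect at E18.5 and 10 with a lower one, beside 3.94% and 4.22% of all genes. The effect on Slc15a3 was 3.66 higher on the log2 scale at E18.5. That on Slc6a20b was 3.23 lower (not passed without E14.5 T1 replicate 1, adjusted p = 0.0705), on Slc15a2 2.22 lower, on Slc7a7 1.01 lower, on Slc1a3 0.95 lower and on Slc38a4 0.48 lower. That on Slc6a20a did not pass without E14.5 T1 replicate 3 (adjusted p = 0.0843). Slc38a3 (-0.47, adjusted p = 0.083) and Slc3a1 (-0.98, adjusted p = 0.064) did not pass with edgeR's quasi-likelihood test. Both passed with DESeq2, Slc38a3 at -0.51 (adjusted p = 0.0147) and Slc3a1 at -1.02 (adjusted p = 0.0104), and Slc3a1 also with no filter on low counts (-1.04, adjusted p = 0.022).

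Most luminal carriers were barely detected at E14.5. In sorted ENL-WT cells 29 of 59 tested members rose from E14.5 to E18.5 and 3 fell (fold above 2 and adjusted p under 0.01), beside 24.8% and 20.6% of all genes. In T1 cells 26 rose and 3 fell, beside 24.4% and 19.8%. Only 49 members had enough reads at E14.5 alone. Members such as Slc7a12, Slc15a1 and Slc6a20a passed the filter through E18.5, where they were higher, and could hardly be called as falling. E14.5 kidneys were dissociated with trypsin and E18.5 kidneys with collagenase, so stage and dissociation cannot be told apart. Slc7a12 had 0 counts over the 3 ENL-WT libraries at E14.5 and 1514 at E18.5, at least 883-fold higher against a floor of 3 counts over the group. In T1 it had 1 count at E14.5 and 53 at E18.5, a ratio of 86.6 (exact 95% interval 15.5 to 3420, counting error only). Slc15a1 had 0 counts at E14.5 in both genotypes and was at least 49-fold higher at E18.5 in ENL-WT and at least 45.2-fold higher in T1. Slc7a13 rose by 8.20 ± 0.62 on the log2 scale in ENL-WT and, from 0 counts, at least 122-fold in T1.

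Slc6a18 rose by 8.24 ± 0.55 in ENL-WT and by 9.16 in T1, Slc3a1 by 6.81 ± 0.22 and 5.83, Slc15a2 by 6.08 ± 0.39 and 3.86, Slc1a1 by 4.32 ± 0.19 and 2.71, and Slc6a20b by 5.63 ± 0.53 and 2.41. These luminal carriers rose with stage in the mutant cells too, and all but Slc15a2 were called lower in T1 than in ENL-WT at E18.5. At E14.5 Slc6a18 had 0, 53 and 27 counts in ENL-WT and 0, 7 and 0 in T1, so its fitted rises rest on few reads. Slc6a20a had 1 count in all ENL-WT libraries at E14.5 against 224 at E18.5, a ratio of 392 (exact 95% interval 70.4 to 15484).

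Carriers with other roles rose as well, in both genotypes. Slc38a2 (SNAT2), the system A carrier that is induced by amino acid shortage, went from 477, 423 and 362 CPM at E14.5 to 2087, 2301 and 1993 at E18.5 in ENL-WT (2.34 ± 0.09) and by 2.22 in T1. The cationic carrier Slc7a1 (CAT1) went from 31.5, 27.9 and 27.3 CPM to 177, 223 and 182 (2.75 ± 0.10, and 2.85 in T1). The creatine carrier Slc6a8 rose by 3.39 and 3.42, the exchanger Slc7a8 by 3.42 and 2.93, the taurine carrier Slc6a6 by 1.43 and 1.07, and Slc7a11 by 1.57 and 2.16. The 3 members that fell in both genotypes were Slc43a1 (LAT3; -1.62 and -1.01), the nucleobase carrier Slc43a3 (-1.32 and -1.25) and the endolysosomal peptide carrier Slc15a4 (-1.09 and -1.04). Of 15 genes of the amino acid response, 8 rose with stage in ENL-WT, namely Stc2, Vldlr, Ddit3, Chac1, Sesn2, Trib3, Atf5 and Atf4, and 1, Aldh18a1, fell. In ENL-T1 against ENL-WT, 1 of the 15 was higher at E14.5 (Vldlr), beside 4.11% of all genes, and 3 were lower at E18.5 (Chac1, Cth and Phgdh), beside 5.54%.

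**Figure D5:**
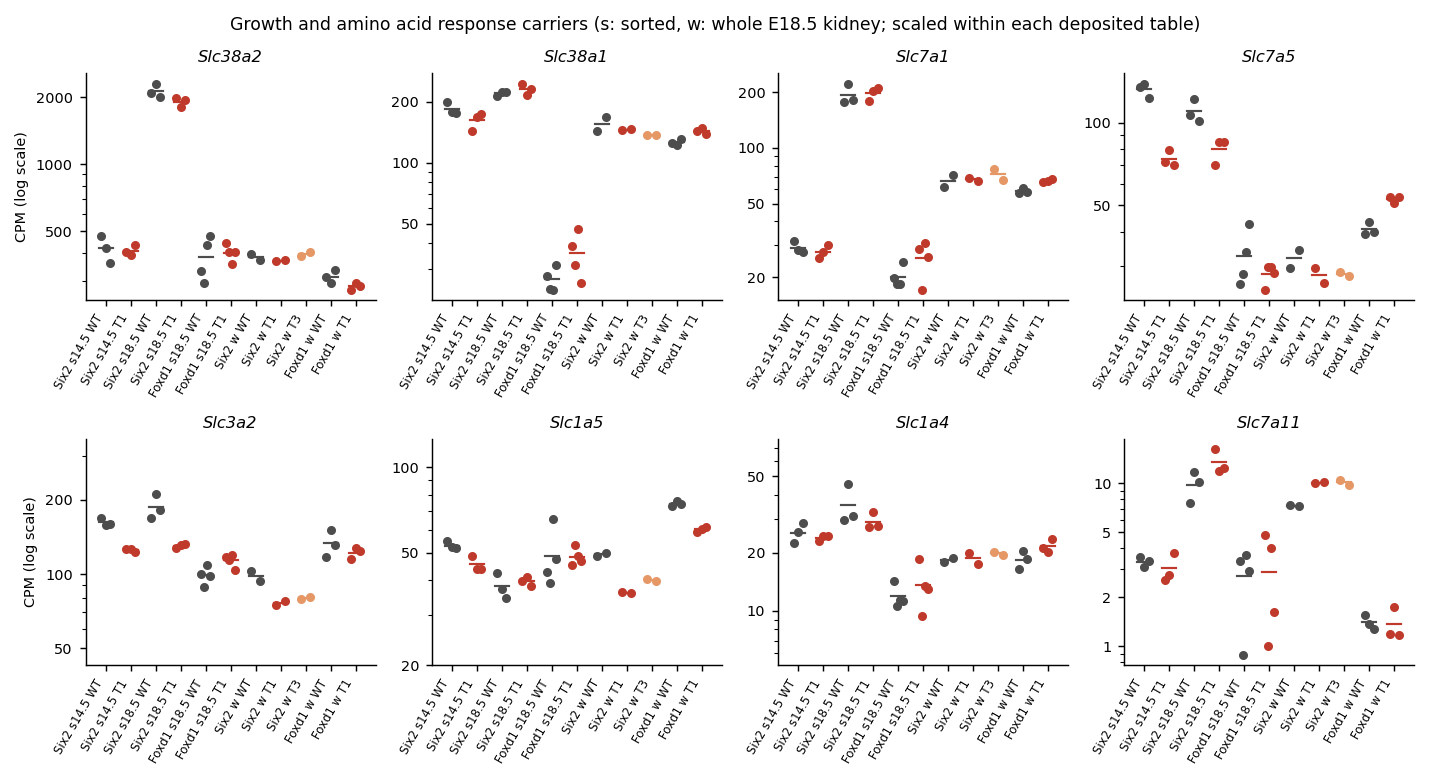
CPM (log axis) of 8 carriers that feed growing cells in all 32 libraries, grouped by experiment and genotype (points). Slc38a2 stands at 1807 to 2301 CPM in sorted Six2 cells at E18.5 in both genotypes and at 477 or below elsewhere, and Slc7a5 is lower in T1 than in ENL-WT in sorted Six2 cells.

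With the Foxd1 Cre the mutation is in the stroma, from which the tubules do not arise. In Foxd1-ENL-T1 whole kidneys 10 of 58 tested members were lower and 0 were higher by edgeR's quasi-likelihood test, beside 7.53% and 2.65% of all genes. At an unadjusted p under 0.05, 9 members were higher, and the exact test called 1, Slc1a6. The lower members were Slc6a12, Slc6a20b, Slc7a13, Slc1a1, Slc6a19, Slc7a7, Slc7a12, Slc6a18, Slc43a2 and Slc38a3. Of these 10, 9 were also among the 17 lower in Six2-ENL-T1 whole kidneys, or 90% of the first list and 52.9% of the second, and the exception was Slc6a19. The 2 experiments share no libraries. Overlaps of lower genes over all genes tested were not counted. Whether these or the following overlaps are particular to the carriers was not tested. Slc1a1, Slc6a18, Slc6a20b, Slc7a12 and Slc7a13 were lower in all 4 of these: whole kidneys of Six2-ENL-T1 and of Six2-ENL-T3 (which share their controls), sorted Six2 cells at E18.5 and Foxd1-ENL-T1 whole kidneys.

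Slc7a13 read 37.3, 40.9 and 44.1 CPM in Foxd1-ENL-WT kidneys and 16, 19.1 and 12.4 in T1, a log2 fold change of -1.36 ± 0.12 (adjusted p = 2.1e-06). Slc6a20b read 35.5, 40.4 and 35.4 CPM and 12.2, 18 and 12, or -1.40 ± 0.12 (adjusted p = 2.6e-06). Slc6a19 read 9.13, 9.79 and 8.99 CPM and 4.12, 4.75 and 3.58, or -1.16 ± 0.12 (adjusted p = 9.9e-06). These libraries of Slc6a19 were tight, unlike those of the Six2 controls. Slc7a7 read 46.7, 53.8 and 43.5 CPM and 20.8, 25.7 and 19.4, or -1.13 ± 0.10 (adjusted p = 2.4e-06). Slc6a18 read 202, 191 and 200 CPM and 97.7, 128 and 127, or -0.75 ± 0.08 (adjusted p = 1.9e-05). No T1 library of these 5 genes reached a control, and for 46.5% of all genes tested the groups did not overlap.

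Slc1a1 fell from 22.1, 22.8 and 21.5 CPM to 7.84, 10.7 and 9.2, or -1.26 ± 0.10. Slc6a12 read 1.47, 2.73 and 3.43 CPM in ENL-WT and 0.327, 0.12 and 0.732 in T1, or -2.69 ± 0.45 (adjusted p = 0.00052). Slc43a2 fell by 0.74 ± 0.07 and Slc38a3 by 0.63 ± 0.11 on the log2 scale, the latter short of 1.5-fold without T1 replicate 1 (-0.48). Slc3a1 read 94.4, 128 and 111 CPM and 66.6, 88.5 and 73.6, and Slc7a9 21.2, 21.3 and 20.6 CPM and 13.8, 16.5 and 15.1. Their log2 fold changes were -0.54 ± 0.11 (adjusted p = 0.0017) and -0.47 ± 0.08 (adjusted p = 0.00041), both short of 1.5-fold. Slc3a1 passed it without T1 replicate 2 (-0.67) or ENL-WT replicate 1 (-0.65). Slc15a2, lower with the Six2 Cre, read 42.4, 33.7 and 33.3 CPM and 44.9, 53 and 33.7 (0.27 ± 0.13, adjusted p = 0.14). Slc7a5 went from 39.3, 43.4 and 39.9 CPM to 53.5, 51.2 and 53.6 (0.37 ± 0.06, adjusted p = 0.00033), likewise short of that fold. Proximal tubule markers were lower for 10 of 12, their sum being 3322 to 3516 CPM in ENL-WT and 1466 to 1900 in T1, and their part in the changes was not tested.

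A test of whether the T1 effect in whole kidneys differed between the 2 Cre drivers passed for 13 of 59 members. The Foxd1-ENL-T1 effect was the higher of the pair for 12 of them and the lower for 1, beside 4.82% and 3.55% of all genes. Slc7a12 differed by 2.85 on the log2 scale, Slc7a13 by 2.54, Slc6a20b by 2.07, Slc15a2 by 1.89, Slc6a18 by 1.78 and Slc3a1 by 1.43. Slc7a7, Slc43a2 and Slc6a12 did not pass. The Six2 and Foxd1 kidneys were separate experiments with different read lengths, which cannot be told apart from the driver except through the controls of each. Sex was balanced between the genotypes only with the Foxd1 Cre. Ddx3y was at 0 in every Foxd1 whole kidney, at 122 and 126 CPM in Six2-ENL-T1, and at 120 and 0 CPM in Six2-ENL-WT. The part of sex in these differences was not tested.

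In sorted Foxd1-lineage cells only 32 members had enough reads to test. Of these, 3 were higher in T1 and 0 lower by edgeR's quasi-likelihood test, beside 3.63% and 2.18% of all genes. At an unadjusted p under 0.05, 3 were lower, and DESeq2 called 0 lower. Slc7a8, the exchanger of neutral amino acids, read 25.2, 17.4, 15.9 and 20.4 CPM in ENL-WT and 44, 43.6, 40.7 and 47.6 in T1, an increase of 1.14 ± 0.13 (adjusted p = 1.1e-05). Slc43a2 read 5.6, 2.95, 2.44 and 4.38 CPM and 8.2, 8.39, 12.7 and 8.15, or 1.24 ± 0.28 (adjusted p = 0.0058). Slc38a6 read 3.64, 7.66, 5.69 and 7.29 CPM and 12.3, 12.1, 10.9 and 12.7, or 0.99 ± 0.23 (adjusted p = 0.0072). In all 3 genes every T1 library lay above every control, and for 15.6% of all genes tested the groups did not overlap. The limit of shared sequence given above for Slc38a6 holds here too.

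Slc43a2 and Slc7a8 were on the other side in the whole Foxd1 kidneys: Slc43a2 was lower, and Slc7a8 read 135, 143 and 134 CPM in ENL-WT and 79.2, 109 and 104 in T1 (-0.50 ± 0.09, adjusted p = 0.001, short of 1.5-fold). Slc38a5 had too few reads for the filter in the sorted Foxd1 cells, at 3.36, 2.95, 3.25 and 5.47 CPM in ENL-WT and 1.86, 1.34, 0.727 and 0.978 in T1, and was called lower only when no filter on low counts was used. Macrophage markers were higher for 6 of 10, with sums of 137 to 351 CPM in ENL-WT and 292 to 404 in T1, and proximal tubule markers summed to 175 to 432 and 90.5 to 162 CPM. Their part in the changes was not tested. Slc3a1 read 4.48, 4.13, 2.85 and 4.38 CPM in ENL-WT and 4.1, 2.35, 2.54 and 2.61 in T1 and was not called (-0.47 ± 0.31, adjusted p = 0.38).

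Between the ENL-WT cells of the 2 lineages most genes were called different, carriers included. Of 44 tested members, 31 were lower in Foxd1 than in Six2 cells at E18.5 and 4 were higher, beside 38% and 34.7% of all genes. Only 32 members had enough reads in the sorted Foxd1 cells alone. Some passed the filter here only through the lineage where they were higher. Slc7a13 and Slc6a20b did so through the Six2 cells and Slc38a5 through the Foxd1 cells. The direction of such members was largely set by the filter. The lineages were sequenced in different runs, which cannot be told apart from the lineage. The higher members were Slc43a3 (log2 fold change 3.01), Slc38a5 (1.89), Slc43a1 (1.24) and Slc38a7 (0.92). For the X-linked Slc38a5, Ddx3y was at 82.4 to 102 CPM in all 4 Foxd1-ENL-WT libraries and at 139 CPM in Six2-ENL-WT replicate 1, and at 0 in the other 2 Six2-ENL-WT libraries, and the part of sex in its difference was not tested. The lower ones were led by Slc1a1 (-3.22), Slc6a18 (-3.09), Slc7a1 (-3.07), Slc15a2 (-3.03) and Slc38a1 (-2.85). Slc43a3 read 80.4, 84, 96.4 and 90.4 CPM in Foxd1-ENL-WT cells and 11.3, 12.4 and 13.8 in Six2-ENL-WT cells, while Slc38a1 read 27.5, 23.9, 23.6 and 31.4 CPM and 212, 223 and 223. The groups were far apart in both.

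The T1 effect differed between the lineages for 13 of 44 members, 11 with a higher effect in Foxd1 cells and 2 with a lower one, beside 8.25% and 7.63% of all genes. Slc7a12 (3.61), Slc7a13 (3.04) and Slc6a20b (2.47) differed most on the log2 scale. These genes fell below the read filter in the sorted Foxd1 cells alone, with at most 15 counts in any library there. They were tested here through their levels in the Six2 cells. Their values therefore say little about a T1 effect in Foxd1 cells. The value of Slc7a12 was not passed without Foxd1-ENL-T1 replicate 1 (adjusted p = 0.118) or 4 (0.212), and that of Slc6a20b held in 3 of the 14 fits that left out a library. Slc43a2 (1.32), Slc7a8 (1.17) and Slc3a2 (0.71) also passed, and the 2 lower were Slc43a1 (-0.83) and Slc43a3 (-0.77).

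Among the carriers that feed growing cells, Slc38a2 lay within 0.15 of 0 on the log2 scale in all 6 comparisons. Slc7a1 was within 0.33 of 0 in all 6 and Slc38a1 within 0.42, and neither was called. Slc1a4, Slc1a5, Slc7a11, Slc7a3 and Slc3a2 were not called in any of these 6 comparisons in which they were tested. Slc7a5 was called lower in sorted Six2 cells at E14.5 (-0.83, adjusted p = 0.00017 by edgeR's quasi-likelihood test) and in no other of the 6.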

How the data were processed

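Kidneys were taken at E14.5 or E18.5 and polyadenylated RNA was sequenced from whole tissue (KAPA stranded kit) or from sorted tdTomato cells (SMART-seq v4). The authors aligned reads to mm10 with HISAT2 and counted them per gene with HTSeq without using strand; the annotation release is not given in the sources used here. The deposited tables hold raw counts, 1 table per experiment, normalised separately here.

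Groups came from the labels. Counts were fitted with edgeR 4.0.16 (R 4.3.3; TMM factors, quasi-likelihood test, genes kept by filterByExpr at a minimum count of 10 and total of 15), with p-values adjusted by Benjamini and Hochberg over all genes tested, and the fits were tested on simulated data. Genotype and lineage calls needed an adjusted p under 0.05 and a fold above 1.5, developmental calls 0.01 and 2, interactions 0.05. Alternatives were edgeR's exact test, DESeq2 1.42.0, other scalings, no filter, the replicate number as a block, the 2 groups alone, and each library left out (genes tested kept fixed). CPM used TMM-scaled library sizes, and per-kb values the exon length in the annotation used here. Of 55806 identifiers, 55450 had a symbol. Intervals and floors cover counting error only, with 3 counts as the floor.

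Named were 20 carriers of the tubule and 8 of growth whatever their result, and for each comparison the 5 called members with the largest change per direction among those whose libraries did not overlap, or all called members where fewer than 6. Members outside that rule were named after their values were seen. Members and lists were chosen with earlier results of these data known. Reads in sequence shared with an overlapping gene could not be assigned. A list of partner and brush-border genes is not reported here.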

Additional observations from a re-analysis of the deposited data

Results flagged for a closer look

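The effect of ENL-T1 differed by a test of the difference itself for 38 pairs of a member and an interaction, all by edgeR's quasi-likelihood test at an adjusted p under 0.05.

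Between E14.5 and E18.5 in sorted Six2 cells, the T1 effect at E18.5 was higher for Slc15a3 (a difference of 3.66 on the log2 scale) and Slc43a1 (0.61). It was lower for Slc6a20a (-6.07, with 1 count over the ENL-WT libraries at E14.5, so that the fitted value is no bound), Slc6a20b (-3.23), Slc15a2 (-2.22), Slc6a13 (-1.68), Slc1a1 (-1.60), Slc6a15 (-1.08), Slc7a7 (-1.01), Slc1a3 (-0.95), Slc38a4 (-0.48) and Slc6a6 (-0.36). The value for Slc43a1 was not passed in 5 of the 12 fits that left out a library, that of Slc6a20a without E14.5 T1 replicate 3 (adjusted p = 0.0843) and that of Slc6a20b without E14.5 T1 replicate 1 (0.0705).

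Between sorted Foxd1 and Six2 cells at E18.5, the effect in Foxd1 cells was higher for Slc7a12 (3.61), Slc7a13 (3.04), Slc6a20b (2.47), Slc6a15 (2.22), Slc6a18 (1.76), Slc6a13 (1.56), Slc43a2 (1.32), Slc7a8 (1.17), Slc3a1 (1.15), Slc3a2 (0.71) and Slc6a6 (0.43), and lower for Slc43a1 (-0.83) and Slc43a3 (-0.77). Without Foxd1-ENL-T1 replicate 1 the test was not passed by Slc3a1 (adjusted p = 0.09) or Slc6a18 (0.0788), and without replicate 2 by Slc6a18 (0.0681). Slc7a12, Slc7a13, Slc6a20b and Slc6a15 were below the read filter in the sorted Foxd1 cells alone and were tested through their levels in the Six2 cells.

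Between whole kidneys with the Foxd1 and the Six2 Cre, the Foxd1 effect was higher for Slc7a12 (2.85), Slc7a13 (2.54), Slc6a20b (2.07), Slc15a2 (1.89), Slc6a18 (1.78), Slc6a20a (1.75), Slc6a15 (1.49), Slc3a1 (1.43), Slc6a13 (1.29), Slc1a1 (0.92), Slc1a3 (0.83) and Slc7a5 (0.56), and lower for Slc38a6 (-0.64). The value for Slc38a6 held in 3 of the 10 fits that left out a library, and that of Slc7a5 was not passed without Six2-ENL-T1 replicate 2 (adjusted p = 0.0747).

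In groups of 4 libraries, 34 pairs of a member and a group were examined with Dixon's test, which flags about 1 group in 20 by chance, and 2 had a library apart from the rest. Slc3a1 stood at 4.10 CPM in sorted Foxd1-ENL-T1 replicate 1 and at 2.35 to 2.61 in the other 3. Slc43a2 stood at 12.7 CPM in sorted Foxd1-ENL-T1 replicate 3 and at 8.15 to 8.39 in the other 3.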

How the results depend on the processing

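Of 162 counts of called members recomputed under the alternatives other than leaving out a library, 148 stayed within 1.5 times the count reported. Six2-ENL-T1 whole kidneys had 2 higher members in place of 1 with the exact test, DESeq2, RLE size factors, library size only, no filter on low counts, and the 2 groups alone, the added member being Slc15a3. With no filter 1 member (Slc6a20b) was lower in T3 than in T1, 1 (Slc38a5) lower in sorted Foxd1 cells, 1 (Slc6a2) higher in Foxd1 whole kidneys, where the exact test also gave 1, and 4 in place of 1 had a lower effect with the Foxd1 Cre. In sorted T1 cells 1 in place of 3 members fell from E14.5 to E18.5 with DESeq2 and with RLE size factors. Of 1520 values of the genes followed in single comparisons, 34 lost and 10 gained a call and 0 changed sign. Over all members and comparisons these alternatives made 61 calls that the reported fits did not, in 38 pairs of a member and a comparison, 31 of them with no filter. Among them were Slc6a17 at E14.5 in 5 settings and Slc6a4, lower in sorted T1 cells at E18.5, in 4.

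Same-numbered libraries deviated together with correlations of -0.0791 to 0.139 over 19 pairs, so the replicate numbers showed no clear pairing. In the Six2 whole kidneys, with 2 libraries per group, both numbers gave the same correlation, so these pairs are not separate. Whether libraries were paired by litter cannot be told from these values. With the replicate block 1 in place of 2 members was lower at E14.5, Slc15a3 being lost (adjusted p = 0.0961), Slc1a2 was lost in T3 (0.0645), Slc7a4 was lost between lineages (0.0935) and Slc6a17 was gained at E14.5 (0.0469). In the comparisons of stages and of lineages the number was used across them.

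Leaving out each library in turn, with higher members before lower ones, gave 0 to 2 and 12 to 19 in Six2-ENL-T1 whole kidneys, 1 to 3 and 13 to 16 in T3, 0 and 0 between T3 and T1, 3 to 5 and 1 at E14.5, 2 to 3 and 11 to 12 in sorted Six2 cells at E18.5, 3 and 0 in sorted Foxd1 cells, and 0 and 9 to 14 in Foxd1 whole kidneys. It gave 26 to 30 and 2 to 3 for stage in ENL-WT, 24 to 28 and 2 to 4 in T1, 4 to 5 and 28 to 32 between lineages, and 1 to 2 and 9 to 12, 7 to 11 and 2, and 11 to 14 and 0 to 3 for the interactions with stage, lineage and Cre. Slc6a19 changed sign in 2 of these fits. It ran from -0.93 to 0.51 (without ENL-WT replicate 1) in Six2-ENL-T1 whole kidneys and from -0.43 to 0.17 (without ENL-WT replicate 2) in sorted Six2 cells at E18.5. The cause was not tested, apart from the smaller number of libraries that these fits hold.

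Other scalings moved the median of all genes by over 0.1 only for stage in ENL-WT, by 0.13 with DESeq2 and RLE size factors and by -0.14 with library size only, and for the lineages, by -0.34 with no filter. The depth of the sorted Foxd1 libraries left 32 of 72 members testable, so that a change in most luminal carriers was not detectable there.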
